A study of Homo sapiens with 6 samples.

Results

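The 51 genes described here encode enzymes that place or remove methyl and acetyl groups on histones: 20 methyltransferases, 13 demethylases, 9 acetyltransferases and 9 deacetylases. They are given by name, and each was found by its symbol among the 56584 gene symbols in the tables of FPKM (fragments mapped to a gene, scaled to its transcript length and to the total of the library), also where a row names several genes. Lysine methyltransferases (the KMT, SETD, SMYD and related families) write marks that are read as active or silent depending on the lysine, and demethylases (the KDM family) remove them. Acetyltransferases such as CREBBP and EP300 open chromatin at enhancers and promoters, and deacetylases (the HDAC family and the sirtuins) reverse this. In germinal centre B cells and the lymphomas that arise from them, this balance is known for recurrent mutations of EZH2, KMT2D, CREBBP and EP300.

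Polyadenylated RNA was measured in 6 libraries from untreated human lymphoma B cell lines, 3 from LY19Y646F and 3 from LY19WT. LY19Y646F is labelled as constitutively expressing the mutant EZH2-Y646F from a CMV promoter, and LY19WT as carrying wild-type EZH2. EZH2 is the catalytic subunit of the Polycomb repressive complex, which methylates lysine 27 of histone H3. The labels call the libraries of a line biological replicates but name no separate cultures, so the spread behind each p-value may be technical. Each group is a single line, so an effect of EZH2-Y646F and any other difference between the lines cannot be told apart. In RNA from bulk cells, fewer cells that express a gene and less RNA per cell cannot be told apart either.

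FPKM summed to 822136 to 845830 in the LY19Y646F libraries and to 806102 to 1020941 in the LY19WT libraries, and the 10 highest rows took 27.5% of the total in LY19WT replicate 3, against 5.71% to 9.38% in the other libraries. The number of reads behind a value is unknown. Of 7 B-lineage markers, 4 had rows of their own throughout, and these summed to 372 to 735 FPKM in LY19Y646F and 267 to 402 FPKM in LY19WT. Among them EBF1, a B-lineage transcription factor, averaged 5.20 ± 0.368 FPKM in LY19Y646F and 43.5 ± 1.08 FPKM in LY19WT (SD, n = 3 each). The 5 myeloid markers summed to 0.374 to 0.723 FPKM in LY19Y646F and 11.4 to 13.9 FPKM in LY19WT. Most of the LY19WT sum came from LYZ. CSF1R was also lower in LY19Y646F, at a mean of 0.0866 FPKM, against 0.713 FPKM in LY19WT. MPO was at 0 in every LY19Y646F library but averaged only 0.0586 FPKM in LY19WT. CD14 and ITGAM had higher means in LY19Y646F, at 0.184 and 0.15 FPKM, against 0.12 and 0.042 FPKM in LY19WT. The 4 T-lineage markers summed to 0.860 to 1.36 FPKM in LY19Y646F and 0.00954 to 0.0370 FPKM in LY19WT, where CD3D, CD3E and CD2 were at 0. The 4 epithelial and 3 usable fibroblast markers summed to at most 0.294 FPKM in LY19Y646F and 0.0758 FPKM in LY19WT. The part of these differences in the results below was not tested.

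EZH2 itself (hg19 chromosome 7, 148504470 to 148581413) measured 70.2, 80.4 and 93.5 FPKM in LY19Y646F and 60.6, 76.5 and 74.7 FPKM in LY19WT. The libraries of the lines overlapped, and LY19Y646F minus LY19WT came to 0.20 ± 0.15 in log2(FPKM + 1) (SE) and did not pass (limma adjusted p = 0.38). The tables hold no separate value for the introduced transcript, so this level does not check the labels.

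Of the deacetylases that could be tested, HDAC2, HDAC4, HDAC7 and HDAC9 fell in LY19Y646F and SIRT1 rose, while HDAC1 and HDAC3 had merged rows in 1 library and were higher in LY19Y646F once those rows were set aside. KDM5B, a demethylase of lysine 4 of histone H3, was near 0 in LY19Y646F. Among 17 tested methyltransferases SETDB2 was called higher and ASH1L lower, among 7 demethylases KDM1B and KDM3A higher and KDM5B lower, and among 6 acetyltransferases KAT5 higher and KAT6A lower. In all, 35 of the 51 genes could be tested (limma on log2(FPKM + 1), two-sided, Benjamini-Hochberg adjustment over 10715 genes, threshold 0.05), and 12 were called, 5 higher and 7 lower. That is 34.3% of the tested members, against 33.3% of all tested genes, so the share called among the histone enzymes was near the background of the 2 lines. Calls across the whole table were 16.7% higher and 16.5% lower. Among the 7315 protein-coding genes of the same fit 38.6% were called. By class, 11.8% of the tested methyltransferases, 42.9% of the demethylases, 33.3% of the acetyltransferases and 100% of the deacetylases were called. The libraries of the lines did not overlap for 16 of the 35 members, or 45.7%, against 48.6% of all tested genes. The median difference of the members was 0.10 on the log2(FPKM + 1) scale, against -0.03 over all tested genes.

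Of the 35 tested members, 7 were both called and at least 1 apart on the log2(FPKM + 1) scale, or 20%, against 20.5% of all tested genes. KDM1B and ASH1L, with rows listed at 0, are among these 7. A further 15 members could not be tested because in at least 1 library their row also held a second protein-coding gene or a failed estimate. HDAC11, a class IV deacetylase, was too low for the test, at 0.162 ± 0.0663 FPKM in LY19Y646F and 0.231 ± 0.354 FPKM in LY19WT (SD, n = 3 each). Mean levels of the tested members over the 6 libraries ran between 2.08 FPKM for HDAC4 and 84.9 FPKM for HDAC2, with a median of 16.1 FPKM.

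**Figure D1:**
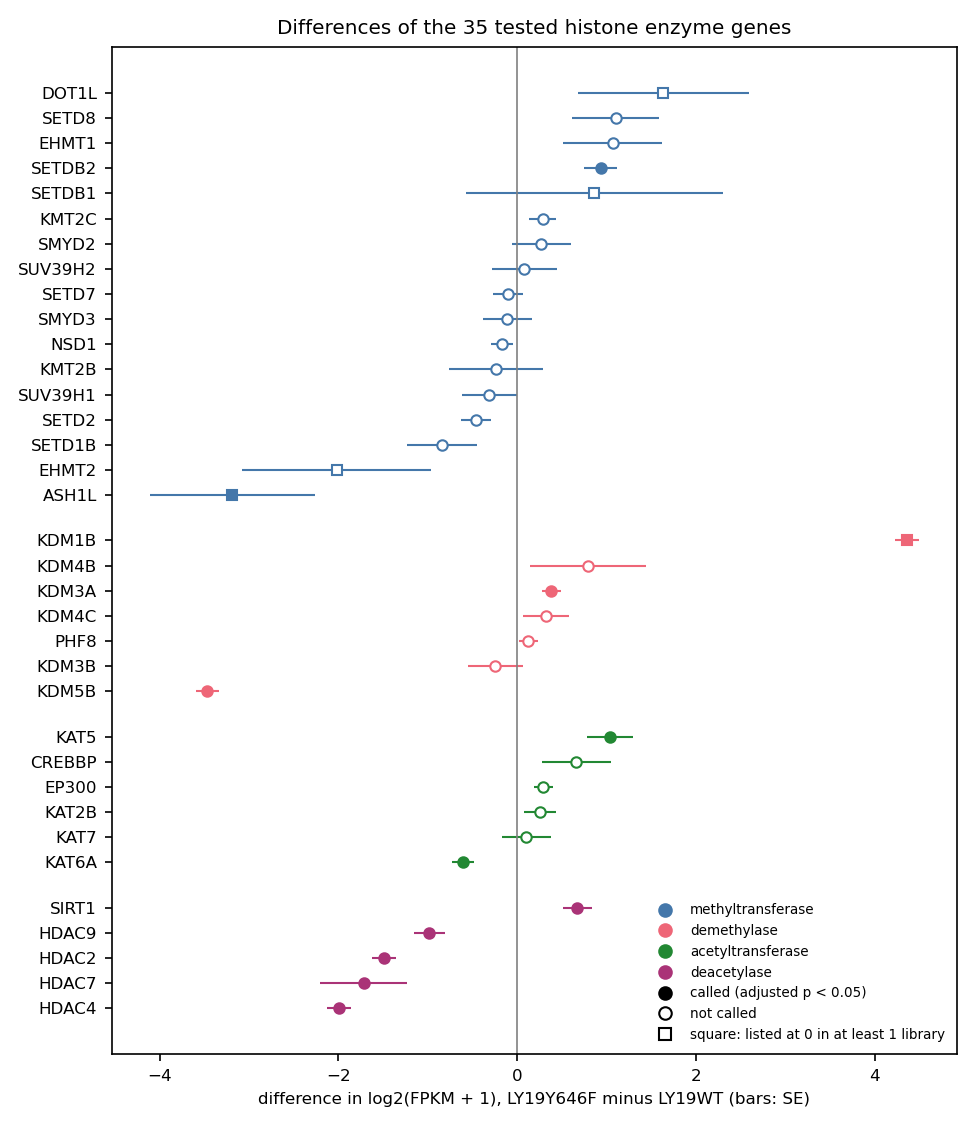
Differences of the 35 tested genes by enzyme class, as LY19Y646F minus LY19WT on the log2(FPKM + 1) scale with SE bars. Filled symbols mark the 12 called genes, and squares mark genes listed at 0 in at least 1 library, among them KDM1B at the far right and ASH1L, the lowest of the methyltransferases.

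SETDB2, a SET-domain protein of the family that methylates lysine 9 of histone H3, was called higher, alone among the 17 tested methyltransferases. Of these 17, 11.8% were called in either direction, against 33.3% of all tested genes. SETDB2 measured 34.9, 46.8 and 45.8 FPKM in LY19Y646F and 18.3, 21.7 and 25.4 FPKM in LY19WT (hg19 chromosome 13, 50018429 to 50069138). Every LY19Y646F library lay above every LY19WT library. The difference was 0.93 ± 0.18 on the log2(FPKM + 1) scale (SE, limma adjusted p = 0.0128), and it missed the threshold when LY19Y646F replicate 2 was left out (adjusted p = 0.0507).

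ASH1L, which methylates lysine 36 of histone H3, was called lower, but its rows were listed at 0 in some libraries. Its values were 0, 6.76 and 0 FPKM in LY19Y646F and 17.6, 27.3 and 10.1 FPKM in LY19WT (hg19 chromosome 1, 155304945 to 155532600). In both LY19Y646F libraries at 0, a merged row naming the neighbouring gene DAP3 overlapped the edge of the locus, at 86.7 FPKM in replicate 1 and 187 FPKM in replicate 3. The call (adjusted p = 0.0495) was lost in 12 of 16 other fits, so the size of the difference is not relied on.

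The other 15 tested methyltransferases were not called, with differences between -2.02 and 1.64 on the log2(FPKM + 1) scale. EHMT2 and DOT1L stood at these ends, and both rested on a library listed at 0. EHMT2, which with EHMT1 places mono- and dimethyl marks on lysine 9 of histone H3, measured 0, 8.20 and 13.5 FPKM in LY19Y646F and 27.8, 19.2 and 14.3 FPKM in LY19WT (adjusted p = 0.21). In LY19Y646F replicate 1, where EHMT2 was listed at 0, 2 rows overlapped its locus, of EHMT2-AS1 and without a name, at up to 15.9 FPKM. Whether these hold reads of EHMT2 was not tested. The lowest LY19WT library was close to the highest LY19Y646F library. DOT1L, the methyltransferase of lysine 79 of histone H3, measured 14.8, 11.7 and 13.5 FPKM in LY19Y646F and 0, 9.06 and 8.67 FPKM in LY19WT (adjusted p = 0.26). The libraries did not overlap, yet the authors' deposited table gives DOT1L the opposite direction, 18.1 FPKM for LY19Y646F and 34.0 FPKM for LY19WT. SETDB1, an H3 lysine 9 methyltransferase related to SETDB2, was likewise listed at 0 in LY19WT replicate 1 only.

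SETD2, which trimethylates lysine 36 of histone H3, had libraries that did not overlap but missed the threshold, at 15.8 ± 2.81 FPKM in LY19Y646F and 22.0 ± 2.15 FPKM in LY19WT (SD, n = 3 each, limma adjusted p = 0.0946). SETD8, which monomethylates lysine 20 of histone H4, averaged 66.9 ± 25.6 FPKM in LY19Y646F and 31.6 ± 17.6 FPKM in LY19WT, and EHMT1 averaged 47.6 ± 18.3 FPKM in LY19Y646F and 23.8 ± 15.5 FPKM in LY19WT. Both means were higher in LY19Y646F, but the libraries overlapped and neither passed. KMT2C, an enhancer methyltransferase of lysine 4 of histone H3 that has near-identical pseudogene copies, averaged 9.88 ± 1.30 FPKM in LY19Y646F and 7.92 ± 0.858 FPKM in LY19WT and did not pass (limma adjusted p = 0.20).

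KMT2D, the paralog of KMT2C that is often mutated in lymphoma, had no row of its own in any library. Its row also names PRKAG1, the gene of a regulatory subunit of AMP-activated kinase, and measured 56.4, 61.0 and 62.3 FPKM in LY19Y646F and 8.35, 5.74 and 4.07 FPKM in LY19WT. The row was far higher in every LY19Y646F library, and the tables do not say which of its genes carries the difference. KMT2A had a row of its own in 2 libraries per line, of 8.48 and 10.0 FPKM in LY19Y646F and 11.0 and 12.3 FPKM in LY19WT. SETD1A, a further H3 lysine 4 methyltransferase, shared its row with neighbours in every LY19Y646F library and in LY19WT replicate 1.

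Among the demethylases, KDM5B changed most clearly. It measured 0.00545, 0.0114 and 0.00576 FPKM in LY19Y646F and 8.91, 10.7 and 10.9 FPKM in LY19WT, from rows of its own in all 6 libraries (hg19 chromosome 1, 202696339 to 202778598). The LY19Y646F values were near 0 and the LY19WT values close together, and the upper confidence limit given by Cufflinks reached 0.195 FPKM in LY19Y646F while the lowest lower limit was 8.44 FPKM in LY19WT. The difference was -3.47 ± 0.13 on the log2(FPKM + 1) scale (SE, limma adjusted p = 4.41e-05) and was called in all 18 other fits. In the authors' deposited table KDM5B averages 0.00731 FPKM in LY19Y646F and 16.2 FPKM in LY19WT. The promoter of this gene, whose FPKM was near 0 in every LY19Y646F library, is shown from RefSeq (GRCh38.p14, chr1:202808372-202808671, minus strand, 250 bases before to 50 after the start), with capitals marking the GC box GGGCGG on either strand.
KDM5B: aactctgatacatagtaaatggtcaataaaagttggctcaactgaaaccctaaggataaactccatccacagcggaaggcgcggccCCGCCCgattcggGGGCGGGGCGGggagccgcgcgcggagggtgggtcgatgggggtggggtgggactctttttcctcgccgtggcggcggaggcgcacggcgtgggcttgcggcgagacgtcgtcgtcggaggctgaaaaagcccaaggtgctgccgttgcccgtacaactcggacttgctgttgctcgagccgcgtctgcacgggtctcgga
The window held 34 CpG and 3 GC boxes, counting boxes that overlap, against a median of 29 CpG in the 46 members with a promoter in the RefSeq table and 14 CpG in all 27305 promoters.

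KDM5A, the paralog of KDM5B, shared its row with SLC6A13 in LY19Y646F replicate 1, so it entered only a fit in which merged and failed rows were set to missing and at least 2 other libraries per line were required. That fit, added after the data were seen, called 32.2% of 12074 genes. The rows that name KDM5A measured 14.6, 12.4 and 13.0 FPKM in LY19Y646F and 20.3, 27.9 and 23.5 FPKM in LY19WT, with no overlap. Without the merged row the difference was -0.85 ± 0.17 on the log2(FPKM + 1) scale (SE, limma adjusted p = 0.0252). KDM5A and KDM5B summed to 14.6, 12.4 and 13.0 FPKM in LY19Y646F and to 29.2, 38.6 and 34.4 FPKM in LY19WT, so the sum in LY19Y646F was almost all KDM5A.

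KDM2A, a demethylase of lysine 36 of histone H3 that binds unmethylated CpG, was lower in the same fit. Its rows measured 10.7, 8.28 and 10.1 FPKM in LY19Y646F and 27.3, 25.3 and 23.3 FPKM in LY19WT, where the second value is a row merged with SSH3. The groups were far apart, and the difference without that row was -1.30 ± 0.17 on the log2(FPKM + 1) scale (SE, limma adjusted p = 0.00661). In the authors' deposited table KDM2A averages 15.2 FPKM in LY19Y646F and 35.1 FPKM in LY19WT. KDM2B, its paralog, overlapped between the lines in libraries with rows of its own, at 43.0, 17.4 and 34.2 FPKM in LY19Y646F and 23.7 and 16.5 FPKM in LY19WT.

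KDM3A, a demethylase of mono- and dimethylated lysine 9 of histone H3, was called higher by a small margin. It measured 15.1, 17.6 and 17.7 FPKM in LY19Y646F and 12.0, 12.8 and 13.1 FPKM in LY19WT (hg19 chromosome 2, 86667770 to 86719958). The libraries did not overlap and the difference was 0.38 ± 0.11 on the log2(FPKM + 1) scale (SE, limma adjusted p = 0.0482). The call was lost in 10 of 18 other fits, among them each fit without a LY19WT library.

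KDM1B, a flavin-dependent demethylase of lysine 4 of histone H3, was called higher against rows listed at 0 in every LY19WT library. It measured 17.6, 22.1 and 19.1 FPKM in LY19Y646F (hg19 chromosome 6, 18155560 to 18226488). The authors' deposited table, by contrast, gives KDM1B 21.1 FPKM in LY19Y646F and 18.4 FPKM in LY19WT. The size of its difference in the library tables is therefore not relied on. KDM1A, the related demethylase of the CoREST complex, measured 75.8, 91.3 and 83.4 FPKM in LY19Y646F and 83.5, 93.3 and 96.5 FPKM in LY19WT, where the first value has a failed status. The lines overlapped, and the difference without that row was -0.19 ± 0.12 on the log2(FPKM + 1) scale (SE, limma adjusted p = 0.31).

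KDM6B removes methyl groups from lysine 27 of histone H3, the residue that EZH2 methylates. Its rows measured 7.72, 3.63 and 2.60 FPKM in LY19Y646F, the first merged with TMEM88, and 0, 0.948 and 0.972 FPKM in LY19WT. Every LY19Y646F library was above every LY19WT library. Without the merged row the difference was 1.38 ± 0.39 on the log2(FPKM + 1) scale (SE) and missed the threshold (limma adjusted p = 0.0618). In the authors' deposited table KDM6B averages 12.6 FPKM in LY19Y646F and 4.46 FPKM in LY19WT. KDM4A, a demethylase of lysines 9 and 36 of histone H3, had rows of 13.0 to 13.9 FPKM in LY19Y646F and 18.0 to 21.6 FPKM in LY19WT, merged with ST3GAL3 in 3 of the 6 libraries. The 4 tested demethylases that were not called, KDM3B, KDM4B, KDM4C and PHF8, differed by between -0.24 and 0.80 on the log2(FPKM + 1) scale.

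**Figure D2:**
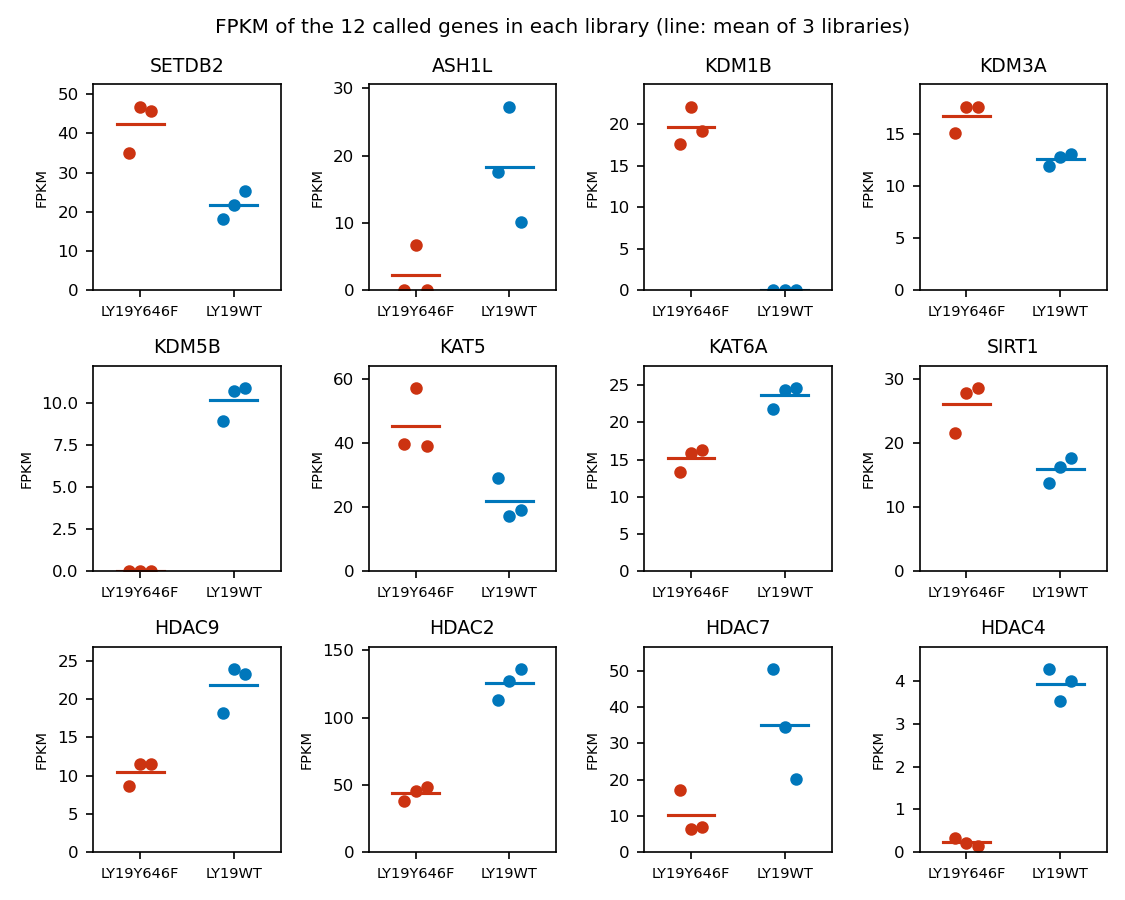
FPKM of the 12 called genes in each library, with LY19Y646F left of LY19WT and a line at the mean of 3 libraries. The groups do not overlap in any panel, and KDM5B in LY19Y646F and KDM1B in LY19WT lie at or near 0.

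Acetyltransferases moved both ways. KAT5, the catalytic subunit of the TIP60 complex, rose and measured 39.8, 57.3 and 39.2 FPKM in LY19Y646F and 29.3, 17.2 and 19.0 FPKM in LY19WT (hg19 chromosome 11, 65479467 to 65487075). The libraries did not overlap, and the difference was 1.04 ± 0.26 on the log2(FPKM + 1) scale (SE, limma adjusted p = 0.0306). The call was lost in 6 of 18 other fits, 5 of them fits that left out a library, and in the authors' deposited table the gap was smaller, at 51.1 FPKM in LY19Y646F and 39.7 FPKM in LY19WT.

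KAT6A, a MYST-family acetyltransferase, fell to 13.4, 15.9 and 16.2 FPKM in LY19Y646F, against 21.8, 24.4 and 24.7 FPKM in LY19WT. The values within each line were close and the lines well apart, with a shift of -0.61 ± 0.12 in log2(FPKM + 1) (SE, limma adjusted p = 0.0143). The call was lost in 2 of 18 other fits, without LY19WT replicate 2 and without LY19WT replicate 3 (highest adjusted p = 0.0602). KAT6B, its paralog, averaged 10.6 FPKM in LY19Y646F and 8.48 FPKM in LY19WT over the libraries without a failed estimate, and did not pass (limma adjusted p = 0.30). The ratio of KAT6A to KAT6B was 1.44, 1.40 and 1.36 in LY19Y646F and 2.90, 2.74 and 2.73 in LY19WT, where KAT6B in LY19Y646F replicate 2 has a failed status. KAT6A thus stood further above KAT6B in every LY19WT library.

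CREBBP and EP300, paralogs that acetylate lysine 27 of histone H3 at enhancers, were not called. CREBBP measured 9.05, 18.2 and 26.6 FPKM in LY19Y646F and 11.3, 9.95 and 8.96 FPKM in LY19WT. The LY19Y646F libraries differed among themselves by more than the lines did, and the shift was 0.66 ± 0.39 in log2(FPKM + 1) (SE, limma adjusted p = 0.26). Without LY19Y646F replicate 1, the lowest of its line, CREBBP was called higher, at 1.06 (adjusted p = 0.0217), and without LY19Y646F replicate 3, the highest, the shift was 0.33 (adjusted p = 0.52). EP300 measured 15.9, 18.2 and 17.0 FPKM in LY19Y646F and 14.6, 13.5 and 13.2 FPKM in LY19WT. Its libraries did not overlap, but the difference of 0.29 ± 0.10 (SE) missed the threshold (limma adjusted p = 0.0882). In a fit that weights the libraries both were called higher, CREBBP by 0.89 (adjusted p = 0.0143) and EP300 by 0.39 (adjusted p = 0.00504). KAT2B and KAT7 differed by 0.26 and 0.10 on the log2(FPKM + 1) scale and did not pass. KAT2A shared its row with RAB5C in all 6 libraries, and KAT8, the MYST enzyme of lysine 16 of histone H4, shared its row with BCKDK in LY19Y646F replicate 1 and in LY19WT replicates 2 and 3. The rows that name KAT8 measured 25.3 to 38.3 FPKM in LY19Y646F and 25.5 to 35.5 FPKM in LY19WT.

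Of the 9 deacetylases, 5 entered the fit over all genes and each of these was called, 4 lower and SIRT1 higher, where 33.3% of all tested genes were called. Their median difference was -1.49 on the log2(FPKM + 1) scale, against -0.03 over all tested genes. HDAC1, HDAC3 and HDAC5 had a merged row and HDAC11 was too low, and HDAC1 and HDAC3 lay higher in LY19Y646F, so the direction of the tested deacetylases is not that of the whole class. HDAC2, a catalytic subunit of the Sin3, NuRD and CoREST corepressor complexes, measured 38.1, 45.7 and 48.9 FPKM in LY19Y646F and 113, 127 and 136 FPKM in LY19WT (hg19 chromosome 6, 114254192 to 114332472). The highest LY19Y646F library was far below the lowest LY19WT library. The difference was -1.49 ± 0.13 on the log2(FPKM + 1) scale (SE, limma adjusted p = 0.000805) and was called in all 18 other fits. In the authors' deposited table HDAC2 averages 60.5 FPKM in LY19Y646F and 189.9 FPKM in LY19WT.

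HDAC1, the paralog that shares these complexes with HDAC2, went the other way. The rows that name it measured 225, 176 and 239 FPKM in LY19Y646F, the first merged with ZBTB8A and ZBTB8B, and 89.4, 97.9 and 86.4 FPKM in LY19WT. Each LY19Y646F row was above each LY19WT row, and without the merged row the difference was 1.16 ± 0.17 on the log2(FPKM + 1) scale (SE, limma adjusted p = 0.00928, 2 against 3 libraries). In the authors' deposited table HDAC1 averages 303 FPKM in LY19Y646F and 130.3 FPKM in LY19WT. The ratio of HDAC1 to HDAC2 was 5.90, 3.85 and 4.90 in LY19Y646F and 0.790, 0.770 and 0.633 in LY19WT, so HDAC1 was the more abundant of the pair in LY19Y646F and HDAC2 in LY19WT. Their sum overlapped between the lines, at 263, 221 and 288 FPKM in LY19Y646F and 203, 225 and 223 FPKM in LY19WT. HDAC3, the catalytic subunit of the NCoR and SMRT complexes, had rows of 83.3, 95.4 and 99.4 FPKM in LY19Y646F, the first merged with FCHSD1, and 66.7, 71.3 and 66.8 FPKM in LY19WT. All LY19Y646F rows were higher, and the difference without the merged row was 0.51 ± 0.09 on the log2(FPKM + 1) scale (SE, limma adjusted p = 0.0186).

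The class IIa deacetylases, which bind MEF2 factors and shuttle between nucleus and cytoplasm, include HDAC4, HDAC7 and HDAC9, which fell, and HDAC5, which was not called. HDAC4 measured 0.340, 0.210 and 0.161 FPKM in LY19Y646F and 4.28, 3.53 and 3.99 FPKM in LY19WT (hg19 chromosome 2, 239969864 to 240323348). The LY19Y646F values were low throughout, and the difference was -2.00 ± 0.14 on the log2(FPKM + 1) scale (SE, limma adjusted p = 0.000292), called in all 18 other fits. HDAC9 measured 8.65, 11.5 and 11.5 FPKM in LY19Y646F and 18.1, 24.0 and 23.2 FPKM in LY19WT (hg19 chromosome 7, 18126572 to 19042039). It was lower in every LY19Y646F library, with a shift of -0.98 ± 0.17 in log2(FPKM + 1) (SE, limma adjusted p = 0.00944), and was called in all 18 other fits. The confidence limits of Cufflinks for HDAC9 in LY19WT reached 0 and 49.8 FPKM at their widest.

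HDAC7 measured 17.1, 6.42 and 7.12 FPKM in LY19Y646F and 50.5, 34.5 and 20.2 FPKM in LY19WT (hg19 chromosome 12, 48176505 to 48226915). The highest LY19Y646F library came close to the lowest LY19WT library, and the call (-1.72 ± 0.49 in log2(FPKM + 1), SE, limma adjusted p = 0.0460) was lost in 6 of 18 other fits. HDAC5, merged with UBTF in LY19Y646F replicate 3, measured 3.76 and 1.22 FPKM in the other LY19Y646F libraries and 8.49, 3.69 and 3.62 FPKM in LY19WT, which overlapped (limma adjusted p = 0.29 without the merged row). HDAC4, HDAC7 and HDAC9 together summed to 26.1, 18.1 and 18.8 FPKM in LY19Y646F and to 72.9, 62.0 and 47.4 FPKM in LY19WT.

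SIRT1, an NAD-dependent deacetylase of histones and of p53, rose. It measured 21.6, 27.8 and 28.6 FPKM in LY19Y646F and 13.8, 16.2 and 17.7 FPKM in LY19WT (hg19 chromosome 10, 69644427 to 69678147). The libraries did not overlap, and the difference was 0.67 ± 0.16 on the log2(FPKM + 1) scale (SE, limma adjusted p = 0.0269). The call was lost in 4 of 18 other fits, all of them fits that left out a library.

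**Figure D3:**
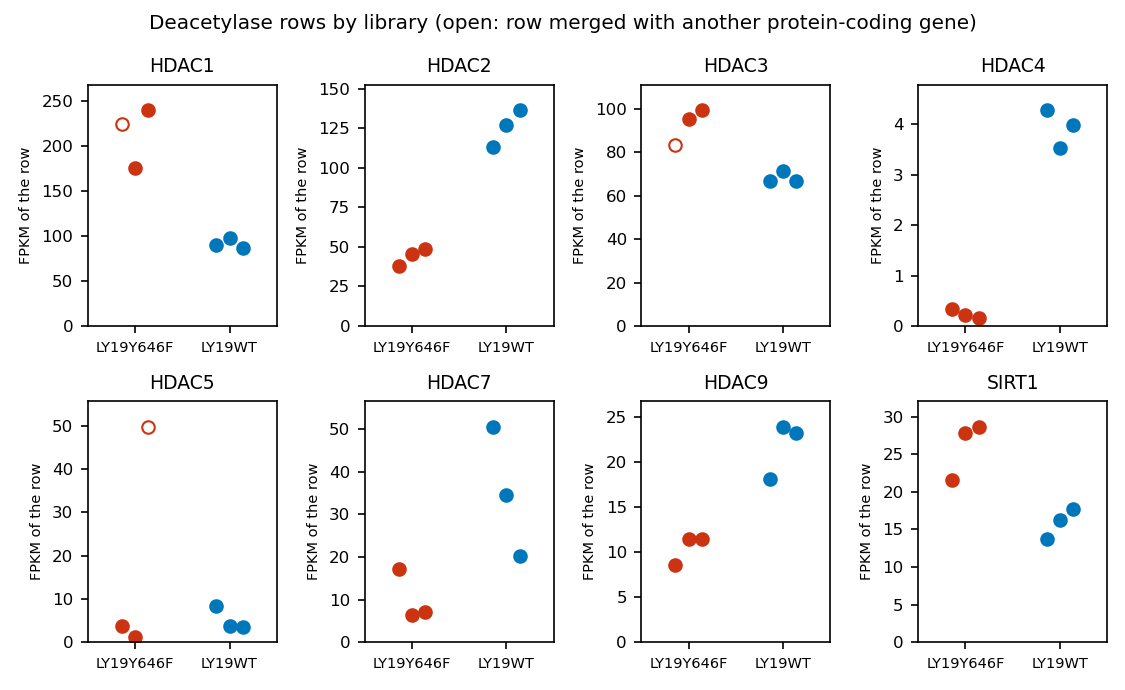
FPKM of the rows of 8 deacetylases in each library, with LY19Y646F left of LY19WT and open circles for rows merged with another protein-coding gene. HDAC2, HDAC4, HDAC7 and HDAC9 lie lower in LY19Y646F, while HDAC1, HDAC3 and SIRT1 lie higher.

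Promoter windows of HDAC2 and HDAC1, paralogs whose RNAs moved in opposite directions, and of HDAC4, which fell to low levels, are shown from RefSeq (GRCh38.p14, 250 bases before to 50 after the listed start). They lie at chr6:113971099-113971398 on the minus strand, chr1:32291833-32292132 on the plus strand and chr2:239274732-239275031 on the minus strand, and capitals mark the GC box GGGCGG on either strand.
HDAC2: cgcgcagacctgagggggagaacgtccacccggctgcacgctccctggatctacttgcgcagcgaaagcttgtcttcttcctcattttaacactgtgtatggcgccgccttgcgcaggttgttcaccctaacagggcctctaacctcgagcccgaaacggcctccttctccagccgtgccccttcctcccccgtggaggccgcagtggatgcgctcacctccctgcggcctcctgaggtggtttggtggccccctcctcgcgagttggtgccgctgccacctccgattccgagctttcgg
HDAC1: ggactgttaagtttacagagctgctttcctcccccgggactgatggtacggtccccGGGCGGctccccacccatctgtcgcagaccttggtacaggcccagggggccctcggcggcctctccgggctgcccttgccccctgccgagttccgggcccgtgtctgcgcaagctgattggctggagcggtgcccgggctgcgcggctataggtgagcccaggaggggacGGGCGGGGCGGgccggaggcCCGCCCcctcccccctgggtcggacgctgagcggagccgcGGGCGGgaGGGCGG
HDAC4: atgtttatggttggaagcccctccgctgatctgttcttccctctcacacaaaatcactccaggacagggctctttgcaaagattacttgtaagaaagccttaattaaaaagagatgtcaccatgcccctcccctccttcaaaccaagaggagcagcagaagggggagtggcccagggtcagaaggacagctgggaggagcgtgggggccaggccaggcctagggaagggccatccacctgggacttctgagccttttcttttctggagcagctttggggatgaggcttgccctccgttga
The HDAC1 window held 28 CpG and 6 GC boxes, counting boxes that overlap, and the HDAC2 window 24 CpG and none. The HDAC4 window held 3 CpG and none, and that of HDAC9 held 5 CpG and none. A single RefSeq start was used per gene, and a long gene can have others. Whether the HDAC4 and HDAC9 windows lie at the starts used in these cells was not tested, so their CpG counts may not describe the promoters in use. A GC box was present in 31 of the 46 member promoters in the table, or 67.4%, against 44.6% of all 27305 promoters. The member promoters were also richer in G and C, at a median of 67%, against 58.3% in all promoters. The part of this composition in the motif shares was not tested. The E-box CACGTG was present in 17.4% of the member promoters and 7.44% of all promoters, and the ETS motif CCGGAA in 21.7% of the member promoters and 17.6% of all promoters. Both strands were searched in each case, and a match describes letters in these windows only.

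Rows limited what could be said about the enzymes. Across the 51 genes and 6 libraries there are 306 values, and 27 genes had a row of their own in all 6 libraries. Rows merged with another protein-coding gene touched 13 genes, rows listed at 0 touched 7 and failed estimates touched KDM1A and KAT6B. In the fit with merged and failed rows set to missing, 45 members were tested, of which 6 were called higher and 8 lower. That fit called 32.2% of all its genes, and ASH1L and KDM3A then missed the threshold. Among the 30 tested members above 0 in every library, 4 were called higher and 6 lower. The fit of only genes above 0 in every library called 3198 of its 8126 genes.

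**Figure D4:**
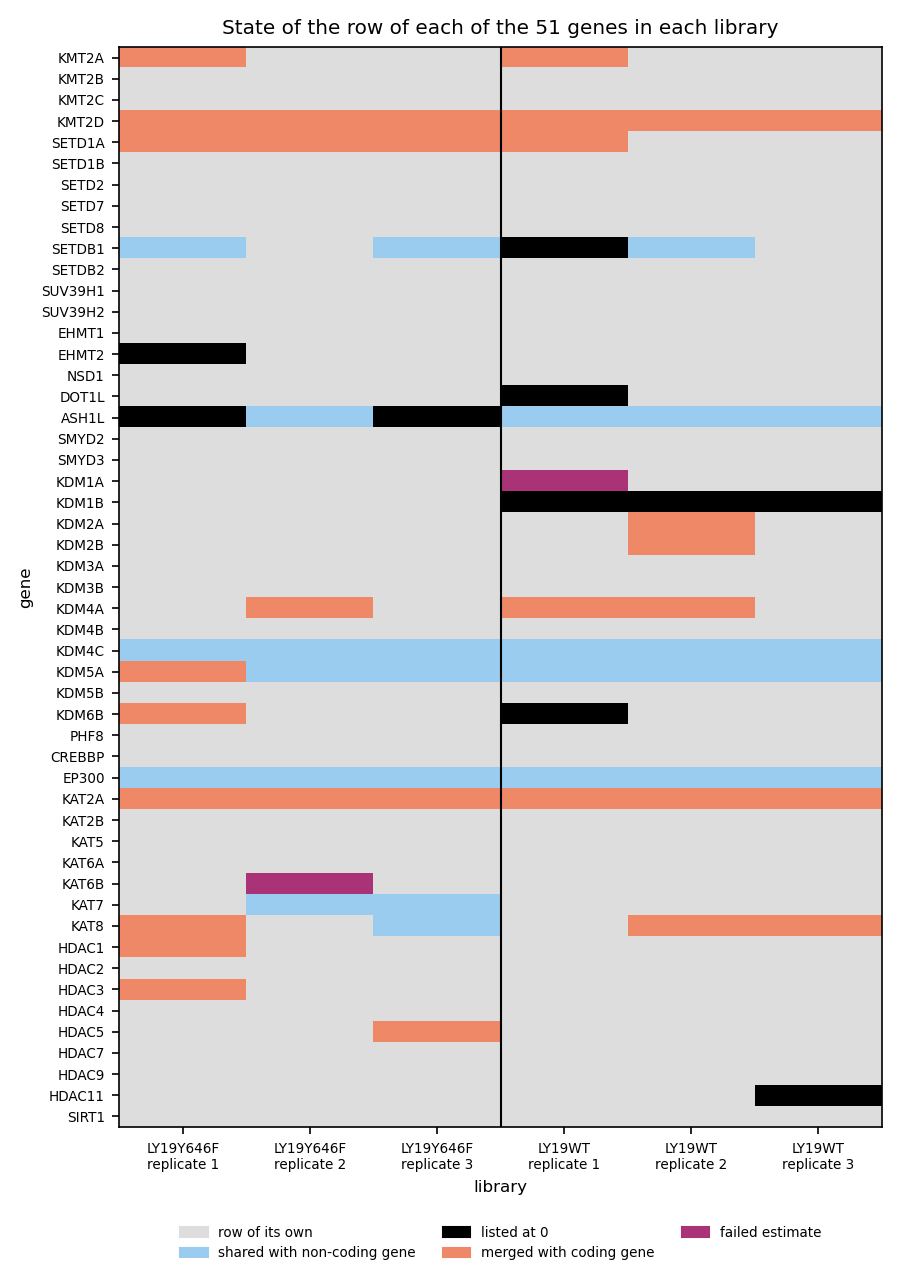
State of the row of each of the 51 genes in each library, LY19Y646F at the left and LY19WT at the right, with colours for rows of its own, rows shared with non-coding genes, rows merged with a protein-coding gene, rows listed at 0 and failed estimates. KMT2D and KAT2A were merged in all 6 libraries, and KDM1B was listed at 0 in the 3 LY19WT libraries.

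For 26 of the tested members the authors' deposited table also gives a mean per line. The direction in the authors' deposited table was that of the library tables for 24 of the 26, and for all 10 called members it holds. The exceptions were DOT1L and SMYD2, a methyltransferase that did not pass. Since both sources come from the same libraries, this compares how the rows were built.

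**Figure D5:**
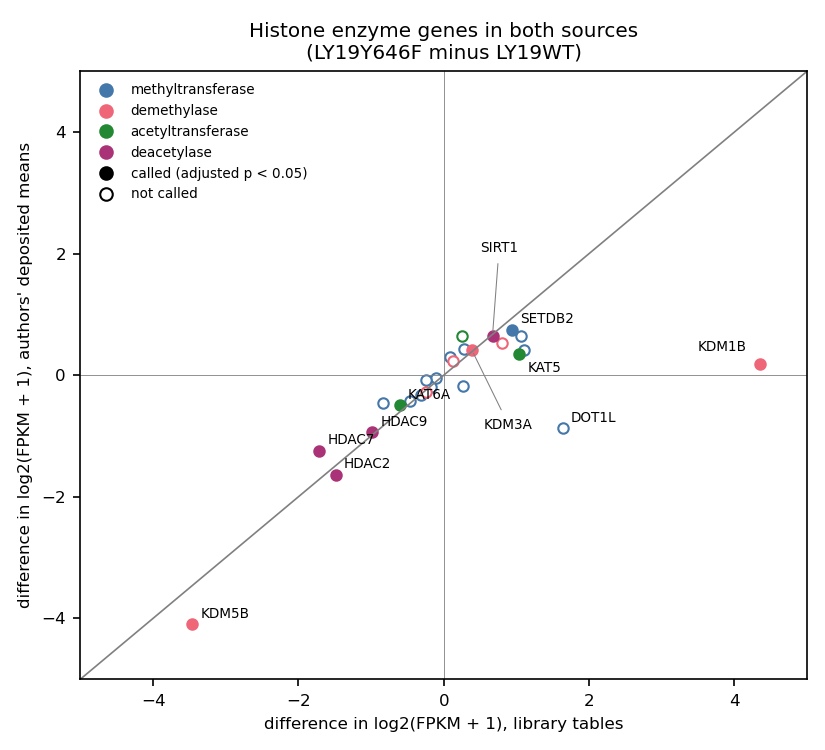
Difference in log2(FPKM + 1), LY19Y646F minus LY19WT, from the library tables (horizontal) and from the means of the authors' deposited table (vertical) for 26 tested genes, with the line of equal values. Most genes lie near the line, while KDM1B and DOT1L, each listed at 0 in at least 1 LY19WT library, lie far from it.

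Other enzymes of the same chemistry, from lists drawn up beside the 51 genes, numbered 48, of which 30 were tested. Of these 5 were higher and 6 lower, or 36.7% called, beside 33.3% of all tested genes and 38.6% of the protein-coding ones. NCOA3, a nuclear receptor coactivator with acetyltransferase activity, showed the largest of these rises, to 113 ± 15.2 FPKM in LY19Y646F, against 5.78 ± 0.710 FPKM in LY19WT (SD, n = 3 each). NCOA1, its paralog, averaged 15.2 FPKM in LY19Y646F and 3.74 FPKM in LY19WT, and ELP3, the catalytic subunit of Elongator, 71.9 FPKM in LY19Y646F and 23.6 FPKM in LY19WT, both higher. TAF1, the largest subunit of TFIID, and CLOCK, a circadian transcription factor, fell, so acetyltransferases were called 3 higher and 2 lower of 7 tested. Among methyltransferases PRDM2 rose while SUV420H1, KMT2E and PRMT6 fell, of 12 tested. SUV420H1, which methylates lysine 20 of histone H4, averaged 5.88 ± 0.863 FPKM in LY19Y646F and 11.7 ± 1.05 FPKM in LY19WT. Among 8 tested demethylases KDM4D rose to 1.34 ± 0.125 FPKM in LY19Y646F, against 0.197 ± 0.0421 FPKM in LY19WT, and PHF2 fell to 3.40 ± 1.14 FPKM in LY19Y646F, against 11.4 ± 2.64 FPKM in LY19WT. None of the 3 further deacetylases that could be tested was called, with a median difference of -0.13 on the log2(FPKM + 1) scale.

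Among partners of these enzymes, 14 were higher and 10 lower of 86 tested, or 27.9% called. Over all tested genes the share was 33.3%, and over the tested protein-coding genes 38.6%. Subunits of the corepressor complexes that hold HDAC1, HDAC2 and HDAC3 gave 6 higher and 1 lower among 22 tested, or 31.8% called. This stands beside 33.3% of all tested genes and 38.6% of the protein-coding ones. The median difference of these 22 subunits was 0.31 on the log2(FPKM + 1) scale. TBL1X, a subunit of the NCoR and SMRT complexes, rose to 11.0 ± 0.557 FPKM in LY19Y646F, against 0.766 ± 0.0199 FPKM in LY19WT, and its paralog TBL1XR1 to 69.7 ± 7.68 FPKM in LY19Y646F, against 32.1 ± 2.80 FPKM in LY19WT. MTA3, a NuRD subunit, rose to 35.9 ± 2.67 FPKM in LY19Y646F, against 11.4 ± 3.99 FPKM in LY19WT. SAP30, a Sin3 subunit, fell to 10.9 ± 1.59 FPKM in LY19Y646F, against 30.1 ± 6.16 FPKM in LY19WT. Subunits of the H3 lysine 4 methyltransferase complexes were called lower in 2 of 9 cases and higher in 0, or 22.2% called, at WDR82 (37.1 ± 0.331 FPKM in LY19Y646F and 74.7 ± 11.0 FPKM in LY19WT) and PAXIP1 (14.8 ± 1.42 FPKM in LY19Y646F and 32.5 ± 6.52 FPKM in LY19WT).

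Acetyltransferase complexes had 4 subunits higher and 2 lower of 38 tested, or 15.8% called. This stands beside 33.3% of all tested genes and 38.6% of the protein-coding ones. EPC1, a scaffold of the TIP60 complex that holds KAT5, rose to 25.0 ± 1.53 FPKM in LY19Y646F, against 14.2 ± 1.14 FPKM in LY19WT, as did RUVBL1 of the same complex and PHF20 of the KAT8 complex. JADE3 and ING4, subunits of the KAT7 complex, fell. Among 17 tested readers of acetyl and methyl marks, 4 were higher and 5 lower, or 52.9% called, with a median difference of -0.38 on the log2(FPKM + 1) scale. BRD2, a bromodomain protein, rose to 219 ± 20.4 FPKM in LY19Y646F, against 104 ± 9.59 FPKM in LY19WT, and BPTF, of the NURF remodeller, rose with it. BRD3, the paralog of BRD2, fell to 1.24 ± 0.351 FPKM in LY19Y646F, against 9.50 ± 1.77 FPKM in LY19WT. ZMYND11, a reader of lysine 36 methylation, fell to 0.0520 ± 0.0788 FPKM in LY19Y646F, against 12.5 ± 1.18 FPKM in LY19WT. AFF1 and AFF4 were on the same list but are scaffolds of elongation complexes, and AFF1 fell to 0.357 ± 0.0652 FPKM in LY19Y646F, against 25.7 ± 7.26 FPKM in LY19WT, while AFF4 rose.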

How the data were processed

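The 3 LY19Y646F and 3 LY19WT libraries were single-end sequencing libraries of polyadenylated RNA made with a strand-specific kit, per the labels' protocols. The submitters' processing notes list STAR 2.5.3a, Cufflinks 2.2.1, Cuffdiff 2.2.1 and build hg19. The annotation release and the strand setting are not given in the sources used here. The authors deposited an FPKM table per library with confidence limits and a status per row, per the file headers, and a table of mean FPKM per line with a log2 fold change. FPKM are scaled to transcript length and library total by the authors, so depth is unknown and precision rests on 3 libraries per line.

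Because each library was assembled alone, symbols served to join the tables. Rows named a gene only if no other protein-coding gene (GENCODE v29 types, older symbols included where the name table lists them) shared them. Symbols with a merged or failed row anywhere, 8938 of 56584, were not tested, and of the others 10715 with a mean of at least 0.5 FPKM were tested. Unnamed rows, 20.1% to 26.2%, were not used. The design had foreseen this fit on FPKM, with values as log2(FPKM + 1) in limma 3.58.1 under R 4.3.3 (trend, two-sided, Benjamini-Hochberg, threshold 0.05), LY19Y646F minus LY19WT. Differences on this scale understate the change of low genes. With 3 against 3 libraries an exact permutation test of a single gene cannot go below 0.1, so none is given. On simulated data of 10715 genes the fit found 39 of the 100 genes set to change 2-fold and 61 of the 100 set to change 4-fold, and 8 of its 108 calls were false. Those rates belong to a simulation with few changed genes. Promoters came from the RefSeq table (GRCh38.p14), where 46 of the 51 genes matched, SETD8 as KMT5A, with a single start used per gene. Other coordinates are hg19, counted from 1, and span the gene's rows. Figures were drawn with matplotlib 3.10.9.

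The members and all gene lists were chosen with earlier results of these data known. Values in every library are given for called members, for CREBBP, EP300, KMT2D, KDM1A, HDAC1, HDAC2, HDAC3 and KDM6B, and for uncalled or untested members at least 2 times apart without overlap. From each further list, up to 3 called genes per direction with the smallest adjusted p are named. KMT2A, KDM2B, KDM4A, KDM5A, SETD2, SETD8, EHMT1, KMT2C, KAT6B, KAT8, HDAC5 and SMYD2 were named after their values were seen. Alternatives were another pseudocount, filters, scalings, row rules, weights, the replicate block and leaving out each library. Setting merged and failed rows to missing, and using only genes above 0 in all 6 libraries, were added after the data were seen.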

Additional observations from a re-analysis of the deposited data

How the results depend on the processing

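The 12 member calls kept their direction in all 18 other fits that could test them. KDM5B, HDAC2, HDAC4 and HDAC9 stayed called in each. KDM1B did too, but all these fits use the same rows, at 0 in every LY19WT library, and in the means of the authors' deposited table its log2(FPKM + 1) difference was 0.19 in place of 4.36. The other 7 lost their call in at least 1 fit. Counts of members called higher depended on single libraries: leaving out each in turn gave 1 to 6 higher, against 5 with all libraries, with 1 without LY19Y646F replicate 2, 2 without LY19Y646F replicate 3 or LY19WT replicate 2, and 3 without LY19WT replicate 1 or 3. Members called lower ranged from 4, without LY19WT replicate 2, to 6, against 7. Library weights gave 11 members higher and 5773 called genes in all, against 3567, and counting merged rows for every gene gave 8 members higher. With the replicate block, 3884 genes, 4 members higher and 8 lower were called, and KAT5 was lost. Libraries of the same number deviated together with correlations of 0.264, 0.0991 and 0.133, and each library correlated best with its own number, which is a hint from the data and not from the design. The cause of these shifts was not tested. The other scalings moved the median difference of all genes by less than 0.1. Depth is unknown, so a value near 0 or listed at 0 does not show that the RNA was absent.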

Other observations

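Replicate 1 often held the extreme value of both lines among the tested histone enzymes. It was lowest in both lines for 17 of the 35 tested members, or 48.6%, against 29.6% of all 10715 tested genes, among them SETDB2, KDM5B, KAT6A, HDAC2, HDAC9 and SIRT1. It held the highest value of both lines for 5 members, KMT2B, SUV39H1, KDM4B, HDAC4 and HDAC7, or 14.3%, against 21.0% of all tested genes. HDAC7, for example, measured 17.1 FPKM in LY19Y646F replicate 1 and 6.42 and 7.12 FPKM in replicates 2 and 3, and 50.5 FPKM in LY19WT replicate 1 and 34.5 and 20.2 FPKM in replicates 2 and 3. The labels give no batch that these numbers would mark.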
